A study of Homo sapiens with 20 samples.

Results

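Heat shock proteins and DNAJ proteins are the chaperones that fold proteins and keep them from aggregating, and the transcript levels of their genes were compared between neuroblastoma cells treated with nutlin-3 and cells treated with vehicle. The members were the protein_coding genes of the GENCODE annotation whose symbols begin with HSPA, HSPB, HSPD, HSPE or HSPH and a number, with HSP90, or with DNAJA, DNAJB or DNAJC and a number. This gave 74 of 20046 protein_coding genes, and each of the 74 had a transcript in the deposited files. The rule used the symbols alone and no measured value. The abundant cytosolic members HSP90AA1 and HSPA8 and the mitochondrial pair HSPD1 and HSPE1 were lower after nutlin, whereas the exchange factor HSPA4L and the stress gene HSPA6 were higher and the inducible HSPA1A and HSPA1B did not pass the test.

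The samples were RNA-seq libraries of NGP, a human neuroblastoma cell line grown in culture. A total of 10 samples had been treated with nutlin-3 (8 µM of the racemic mixture), a small molecule that binds MDM2 and releases p53 from it, and 10 with ethanol, its vehicle. All 20 came from the same line, so that the comparison holds for 1 tumor cell line and 1 dose, and the length of the treatment is not given in the sources used here. Poly(A) RNA was sequenced from stranded libraries, and a library held between 14455477 and 19532971 estimated counts. The samples of a group are described as biological replicates. As a check of the labels, MDM2, itself a p53 target, ranged from 199 to 290.3 CPM in the vehicle samples and from 4797 to 6005 CPM in the nutlin samples. CPM are counts scaled to library size after TMM normalization, the scale used for 1 gene across samples. All 11 markers of neuroblastoma cells were detected, with a summed level of 4119 to 4937 TPM, a level corrected for transcript length, in vehicle and 4555 to 5578 TPM in nutlin, whereas the 5 leukocyte, 5 fibroblast and 4 epithelial markers summed to no more than 5.32, 14.8 and 3.57 TPM in any sample. CD3E, which defines T cells, was at 0 in every sample.

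Chaperones work in teams. An HSP70 protein binds a stretch of unfolded chain and releases it in a cycle of ATP hydrolysis, a DNAJ protein brings the chain and starts the hydrolysis through its J domain, and an exchange factor such as an HSP110 protein ends the cycle. HSP90 acts later, on kinases, hormone receptors and other clients that are almost folded, p53 among them, and in mitochondria HSPD1 and HSPE1 form a closed chamber in which chains fold. Part of the family is made at all times, part is induced by heat through the transcription factor HSF1, and the members of the endoplasmic reticulum (ER) are induced when unfolded protein gathers there.

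The control regions of the members described most below are shown first. Of the 74 members, 66 had 1 or more promoters in the RefSeq table of build GRCh38.p14, 85 promoters in all, and the 250 bases before each start site were searched on both strands. The short form of the heat shock element, to which heat shock factors bind, was spelled GAANNTTC or TTCNNGAA, and the full form was 3 alternating units of GAA and TTC with 2 bases between neighbours, so that each full form also holds short forms. The short form was present in 20 of the 85 promoters (23.5%), against 11.6% of the 35116 promoters in the table. Of the 15 promoters of the 11 members listed below as heat-inducible, the constitutive HSPA8 among them, 9 held the short form. The short form was in 8 of 43 promoters of members that were lower after nutlin (18.6%) and in 5 of 20 of members that were higher (25.0%), and in none of the 9 promoters of ER members. The full form was present in 6 of the 85 promoters (7.06%), those of HSP90AA1, HSP90AB1, HSPA6, HSPA8, HSPD1 and DNAJB6, against 0.441% in the table. The lines below give the elements of HSP90AA1, HSP90AB1, HSPA8, HSPD1 and DNAJB1, which fell, of HSPA1A, which was not called, and of HSPA6 and HSPA4L, which rose, with the short forms in capitals.
HSP90AA1 (chr14:102087090-102087147, minus strand): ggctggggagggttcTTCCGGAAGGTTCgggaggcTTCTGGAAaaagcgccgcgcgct
HSP90AB1 (chr6:44247763-44247858, plus strand): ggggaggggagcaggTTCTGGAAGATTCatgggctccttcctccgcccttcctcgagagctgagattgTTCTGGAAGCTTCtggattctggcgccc
HSPA8 (chr11:123062171-123062199, minus strand): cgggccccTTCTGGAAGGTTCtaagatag
HSPA8 (chr11:123062346-123062374, minus strand): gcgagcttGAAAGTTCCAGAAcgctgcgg
HSPD1 (chr2:197500062-197500090, minus strand): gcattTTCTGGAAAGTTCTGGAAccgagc
DNAJB1 (chr19:14518422-14518489, minus strand): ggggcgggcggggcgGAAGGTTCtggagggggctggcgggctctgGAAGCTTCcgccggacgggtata
HSPA1A (chr6:31815422-31815459, plus strand): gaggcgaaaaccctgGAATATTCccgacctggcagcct
HSPA6 (chr1:161524345-161524493, plus strand): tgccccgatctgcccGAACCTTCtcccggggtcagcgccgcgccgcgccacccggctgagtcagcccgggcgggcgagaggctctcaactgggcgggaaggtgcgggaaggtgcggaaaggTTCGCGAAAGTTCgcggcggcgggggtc
HSPA4L (chr4:127782137-127782174, plus strand): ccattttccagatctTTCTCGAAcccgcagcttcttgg
Elements of this kind thus stood before members that were lower, higher and not called after nutlin. The ER stress element, CCAAT followed by 9 bases and CCACG, was found in 2 of the 85 promoters, those of HSPA5 and HSP90B1, against 0.074% of the table. The E2F site of cell cycle genes (TTTGGCGC, TTTCCCGC, TTTGGCGG or TTTCGCGC) was found in 5 of the 85 (5.88%), against 2.83% of the table. It was in 2 of 43 promoters of members that were lower after nutlin (4.65%) and in 1 of 20 of members that were higher (5.0%). The rest stood before members that were not called. The site of DNAJC9 is shown because this gene fell most among the DNAJ genes. The capitals mark these elements.
HSPA5 (chr9:125241386-125241414, minus strand): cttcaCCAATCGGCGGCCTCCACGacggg
HSP90B1 (chr12:103930211-103930239, plus strand): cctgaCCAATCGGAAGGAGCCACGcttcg
HSP90B1 (chr12:103930316-103930344, plus strand): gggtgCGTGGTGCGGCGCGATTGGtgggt
DNAJC9 (chr10:73247256-73247285, minus strand): ccctgggctttttggGCGCGAAAaagaagc
A match of letters is a description and does not show that a factor bound there, and no match says only that these letters are not in this window.

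Of the 74 members, 71 were tested. HSPB2, HSPB3 and the read-through gene HSPB2-C11orf52 had no count in any vehicle sample and 3, 2 and 1 counts over the 10 nutlin samples. At 5% FDR of the edgeR quasi-likelihood test over all 27697 genes, 49 of the 71 (69.0%) were SDE genes, that is, significantly differentially expressed, against 58.8% of all genes and 70.9% of the 17351 mRNAs. The members were therefore called about as often as other mRNAs. Of these 49, 17 were higher after nutlin (23.9% of the 71, against 32.4% of the mRNAs) and 32 were lower (45.1%, against 38.5%). Every nutlin sample lay below every vehicle sample for 26 members, or 36.6%, and above it for 8, or 11.3%. Among the mRNAs these percentages were 25.6% and 14.5%. Abundance entered these percentages, since 50 of the 71 members but 9443 of the 17351 mRNAs had a mean of at least 10 CPM. Of these 50 members, 40 were called (80.0%), against 85.2% of the mRNAs of that abundance, 28 lower (56.0%, against 59.3%) and 12 higher (24.0%, against 26.0%). Every nutlin sample lay below every vehicle sample for 25 of them (50.0%, against 42.7%) and above for 5 (10%, against 16%). The median log2 fold change (LFC, nutlin minus vehicle) of these 50 members was -0.31, against -0.24 for those mRNAs. More than 2-fold changes that passed the test numbered 9 of 71 downward, against 1331 of 17351 mRNAs (7.67%). Upward they numbered 4 of 71, against 2441 of 17351 (14.1%). This background was not matched for abundance. Of the 4 upward, HSPA1L and HSPB8 had means below 1 CPM and few counts.

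**Figure D1:**
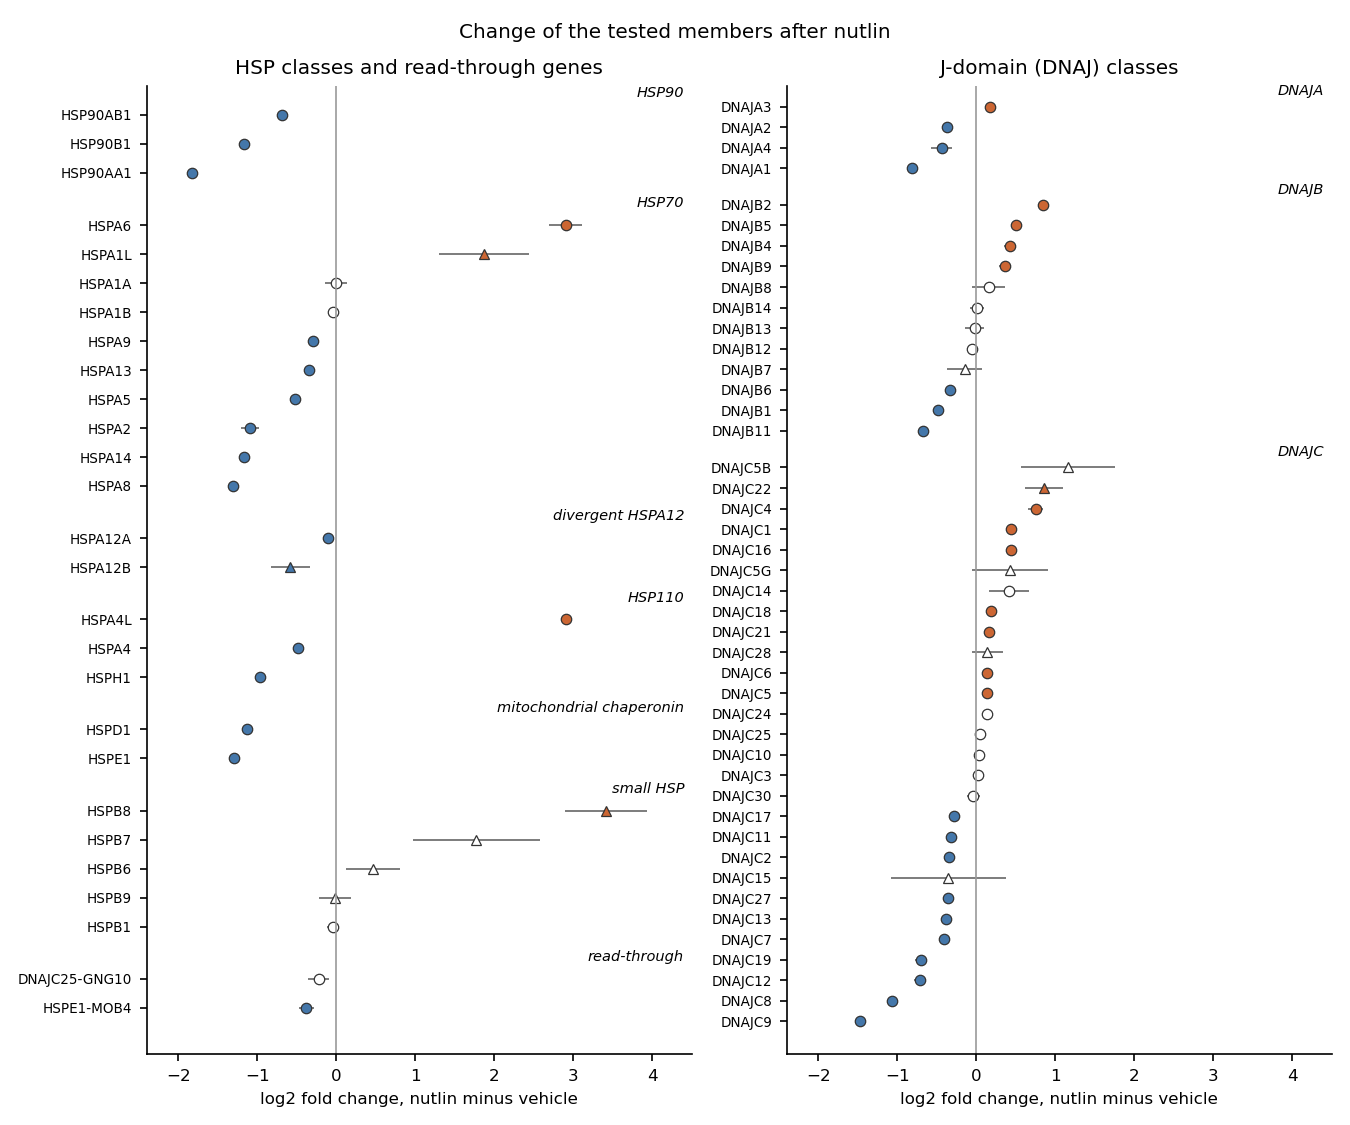
LFC (x axis, log2, nutlin minus vehicle) of the 71 tested members, grouped by class, with bars of 1 standard error from the edgeR fit. Orange symbols were higher and blue symbols lower at 5% FDR, open symbols were not called, and triangles mark members with a mean below 1 CPM. The 3 HSP90 genes lay between -1.82 and -0.69, whereas HSPA4L and HSPA6 lay at 2.90.

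The most abundant members were among those that fell, and the family's total fell with them. The summed level of the 74 members was between 6614 and 7446 TPM in the vehicle samples (median 7325) and between 3776 and 4023 TPM in the nutlin samples (median 3935). Every nutlin sum lay below every vehicle sum, and the ratio of the means was 0.542. HSPA8, HSP90AB1 and HSP90AA1 ranked 94, 96 and 100 among the mRNAs by mean TPM in vehicle and 145, 108 and 212 in nutlin. By class, the 3 HSP90 genes summed to a median of 2674 TPM in vehicle and 1217 TPM in nutlin. The 10 HSP70 genes summed to 1733 and 926 TPM, the mitochondrial chaperonin pair to 1223 and 544 TPM, and the 44 DNAJ genes to 1362 and 1033 TPM. Over all transcripts, the sum of the HSP110 exchange factors was 208 TPM in vehicle and 176 TPM in nutlin, with ranges that overlapped. HSPA4L rose while HSPH1 and HSPA4 fell. All 8 markers of dividing cells were lower after nutlin, and their summed level was 1086 to 1270 TPM in vehicle and 295.8 to 358 TPM in nutlin. Their part in the results was not tested, and in bulk RNA fewer cells of a kind and less RNA per cell cannot be told apart.

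**Figure D2:**
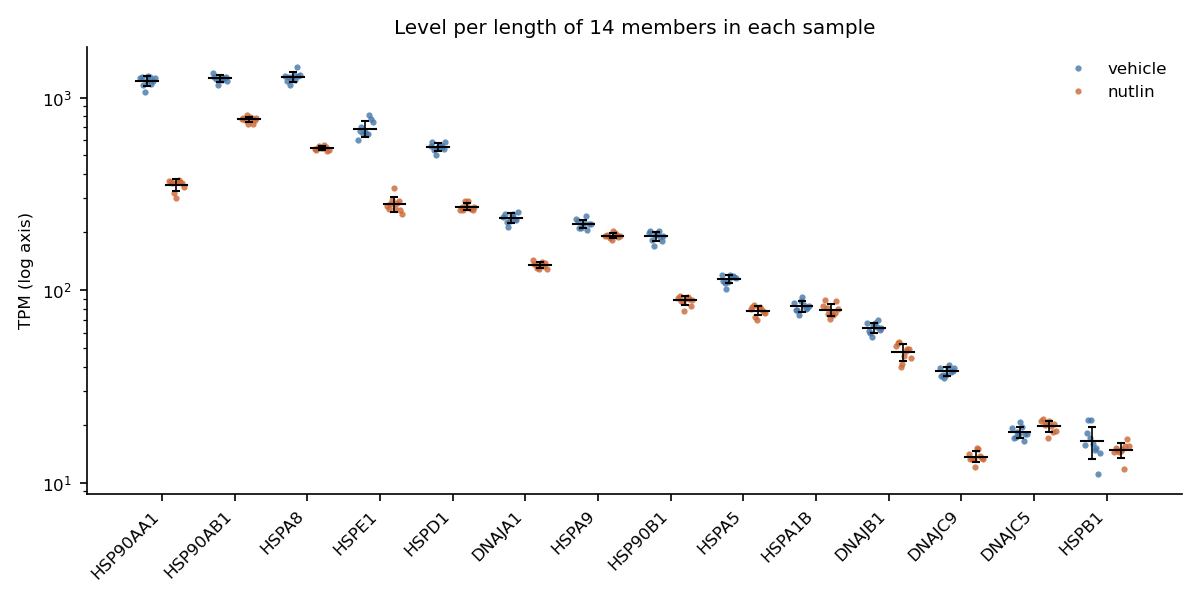
Level of 14 members in each sample (y axis, TPM on a log axis), with vehicle in blue, nutlin in orange, and bars at the mean ± 1 SD of 10 samples. The groups of HSP90AA1, HSP90AB1, HSPA8, HSPE1 and HSPD1 do not meet, whereas those of HSPA1B and HSPB1 overlap.

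All 3 HSP90 genes were lower after nutlin. HSP90AA1, the heat-inducible cytosolic form, ranged from 3517 to 4070 CPM (median 3757) in vehicle and from 956 to 1145 CPM (median 1055) in nutlin. It had the most negative LFC of all members, -1.82 (SE 0.04, adjusted p = 4.09e-26), or 3.53-fold lower. HSP90AB1, the constitutive cytosolic form, ranged from 2647 to 3302 CPM (median 2897) in vehicle and from 1719 to 1877 CPM (median 1841) in nutlin, with an LFC of -0.69 (SE 0.04, adjusted p = 3.26e-16). Both forms were at much the same level per length in vehicle, with means of 1223 ± 68.8 and 1257 ± 48.2 TPM (SD, n = 10). After nutlin they stood at 352 ± 23.7 and 770.3 ± 26.1 TPM, so that the constitutive form was the more abundant by over its spread. HSP90B1, the ER form also known as GRP94, ranged from 366 to 413 CPM (median 376) in vehicle and from 162 to 182 CPM (median 168) in nutlin (LFC -1.17, SE 0.03, adjusted p = 1.59e-23). The 3 genes are at chromosome 14, 102080742 to 102139699, chromosome 6, 44246166 to 44253888, and chromosome 12, 103930107 to 103953931 (GRCh38).

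In the HSP70 class, 6 of 10 genes were lower (60.0%), 2 higher and 2 not called. Of all mRNAs 38.5% were lower, and of those that average 10 CPM or more 59.3%. HSPA1A, HSPA1L, HSPA2 and HSPA6 were scarcer than that. HSPA8, the constitutive cytosolic HSP70 (chromosome 11, 123057489 to 123063230), ranged from 1867 to 2499 CPM (median 2033) in vehicle and from 772 to 914 CPM (median 831) in nutlin. The highest vehicle value, 2499 CPM, was that of replicate 10, and the next was 2194 CPM. No nutlin sample reached the lowest vehicle sample, and the LFC was -1.31 (SE 0.05, adjusted p = 6.56e-21). HSPA14, a ribosome-associated HSP70, fell from a median of 33.6 to 14.7 CPM (LFC -1.17, adjusted p = 3.74e-18). HSPA2, known for its role in the testis, was scarce, from 3.85 to 7.24 CPM (median 5.08) in vehicle and from 1.97 to 3.09 CPM (median 2.55) in nutlin, and every nutlin sample was below every vehicle sample (LFC -1.09, adjusted p = 4.76e-10). The ER forms HSPA5 and HSPA13 and the mitochondrial HSPA9 are given with their compartments.

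HSPA1A, HSPA1B and HSPA6 are the HSP70 genes best known for induction by stress, although HSPA1B was already at a mean of 82.4 TPM in vehicle. HSPA1A and HSPA1B (chromosome 6, 31815543 to 31817946 and 31827738 to 31830254) are near-identical, and kallisto divided their reads between them, so that the level of either alone is uncertain. As deposited, HSPA1B ranged from 174 to 204 CPM (median 185) in vehicle and from 171 to 196 CPM (median 181) in nutlin, and HSPA1A from 2.98 to 8.46 CPM (median 5.99) in vehicle and from 4.33 to 8.59 CPM (median 6.25) in nutlin. The groups overlapped fully for both, and added up they had an LFC of -0.04 (SE 0.04, adjusted p = 0.381). HSPA6 (chromosome 1, 161524540 to 161526894), in other cells made almost only under strong stress, ranged from 0.497 to 1.64 CPM (median 1.05) in vehicle and from 2.81 to 10.8 CPM (median 8.14) in nutlin. All nutlin samples were above all vehicle samples, with an LFC of 2.90 (SE 0.21, adjusted p = 2.76e-13), or 7.47-fold higher. The level stayed low, at 3.57 ± 1.06 TPM (SD, n = 10) in nutlin, and up to 8.33% of the counts in a sample of HSPA6 and its copy HSPA7 together lay on HSPA7. HSPA1L, a testis form that lies beside HSPA1A, was also called, on 5 counts over the vehicle samples and 22 over the nutlin samples (LFC 1.87, adjusted p = 0.0058).

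The list of heat-inducible members, which cuts across the classes, held 11 genes, of which 7 were lower, 1 was higher and 3 were not called. HSP90AA1, HSPA8, HSPE1, HSPD1, HSPH1, DNAJA1 and DNAJB1 were lower, HSPA6 was higher, and HSPA1A, HSPA1B and HSPB1 were not called. Their summed level was between 3852 and 4484 TPM in vehicle and between 1735 and 1832 TPM in nutlin. HSPA8, described above as the constitutive form, is on this list and averaged 1277 TPM in vehicle and 544.5 TPM in nutlin. The list was fixed by name, and the counts depend on that choice. Called members with the short heat shock element that are not on it went both ways. HSPA4L, HSPA1L, HSPB8 and DNAJB4 were higher, and HSP90AB1, DNAJB6 and DNAJA4 were lower. Of the list, 63.6% were lower and 9.09% higher, against 38.5% and 32.4% of all mRNAs. For mRNAs that average 10 CPM or more the shares were 59.3% and 26.0%. That background is not matched to the list, since HSPA1A and HSPA6 had means of 6.37 and 4.36 CPM, and HSPA6 was the only higher gene. HSF1, the factor that drives heat-inducible genes under heat, ranged from 58.8 to 75.2 CPM (median 68.7) in vehicle and from 70.6 to 82.7 CPM (median 77.4) in nutlin. Its groups overlapped (LFC 0.16, adjusted p = 0.00129). HSF2 ranged from 61.6 to 79.6 CPM (median 69.8) in vehicle and from 42.4 to 48.3 CPM (median 45.7) in nutlin, without overlap (LFC -0.61, adjusted p = 6.02e-14).

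The HSP110 class changed its makeup. HSPH1 (HSP105; chromosome 13, 31134973 to 31162388) ranged from 358 to 414 CPM (median 392) in vehicle and from 192 to 214 CPM (median 198) in nutlin (LFC -0.96, SE 0.03, adjusted p = 8.87e-22). HSPA4 (APG-2; chromosome 5, 133052013 to 133106449) ranged from 214 to 258 CPM (median 235) in vehicle and from 157 to 183 CPM (median 168) in nutlin (LFC -0.48, SE 0.03, adjusted p = 1.43e-13). Their relative HSPA4L (APG-1; chromosome 4, 127781821 to 127840733), first described in the testis, ranged from 29.7 to 40.6 CPM (median 36.6) in vehicle and from 237 to 291 CPM (median 277) in nutlin. Both HSPH1 and HSPA4 had all nutlin samples below all vehicle samples and HSPA4L all above, by 7.48-fold (LFC 2.90, SE 0.06, adjusted p = 2.50e-26). HSPA4L and HSPA6 had the highest LFC of the members with a mean of at least 1 CPM. Per length, HSPA4L made up a median of 3.62% of the HSP110 TPM in vehicle (3.28% to 4.05%) and 34.4% in nutlin (31.9% to 35.5%). HSPH1 made up 62.3% and 35.7%. After nutlin the 3 genes stood at 63.4 ± 2.79, 52.9 ± 2.65 and 60.3 ± 4.53 TPM (SD, n = 10). These levels and shares count all transcripts of a gene, coding or not. HSPH1-206, annotated as nonsense_mediated_decay, held a mean of 34.3% of HSPH1 in both groups. HSPA4-203, annotated as retained_intron, held 27.6% of HSPA4 in vehicle and 33.55% in nutlin. Every HSPA4L transcript tested for its share was annotated as protein_coding. Shares of the coding transcripts alone were not computed.

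**Figure D3:**
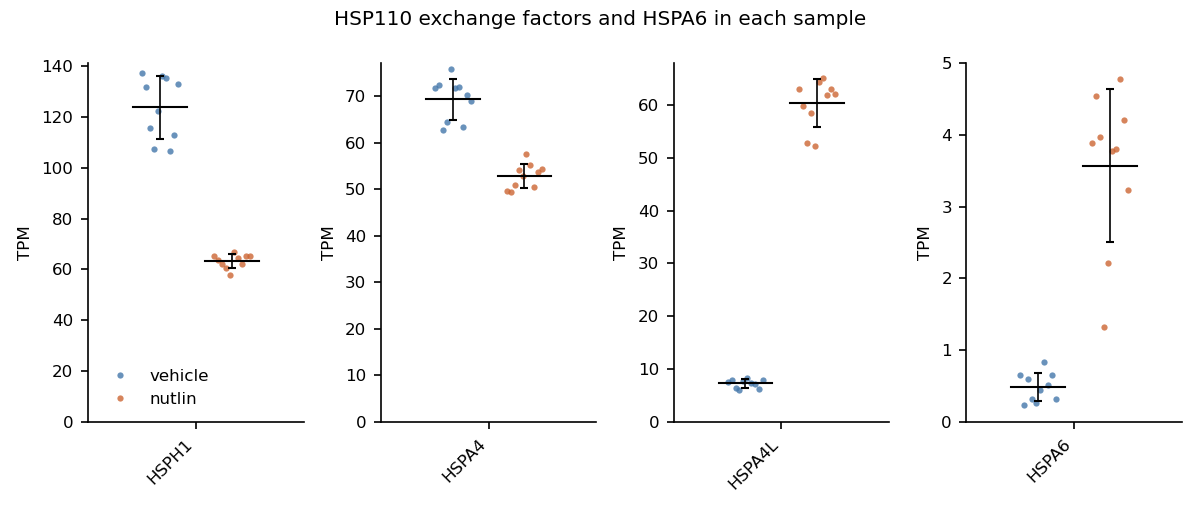
Level of the HSP110 genes HSPH1, HSPA4 and HSPA4L and of HSPA6 in each sample (y axes, TPM, each from 0), with vehicle in blue, nutlin in orange, and bars at the mean ± 1 SD of 10 samples. HSPA4L went from a mean of 7.28 to 60.3 TPM and HSPA6 from 0.484 to 3.57 TPM.

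Of the 8 mitochondrial members, 5 were lower (62.5%), 1 was higher and 2 were not called. Among all mRNAs 38.5% were lower, and among those with a mean of at least 10 CPM 59.3%. DNAJC15, with a mean of 0.053 CPM, is 1 of the 8 and far scarcer than that. HSPD1 (HSP60) and HSPE1 (HSP10), the chamber and its lid, lie head to head on chromosome 2, with 135 bases of exon in common on opposite strands. HSPD1 ranged from 1032 to 1228 CPM (median 1110) in vehicle and from 462 to 581 CPM (median 507) in nutlin (LFC -1.14, SE 0.04, adjusted p = 1.38e-20). HSPE1 ranged from 309 to 485 CPM (median 371) in vehicle and from 135 to 204 CPM (median 150.3) in nutlin, where the highest nutlin value was that of replicate 6 and the next was 164.8 CPM (LFC -1.29, SE 0.07, adjusted p = 1.35e-15). The pair fell by like amounts, 2.20-fold and 2.44-fold, and neither had overlapping groups. The read-through gene HSPE1-MOB4 shares 192 bases of exon with HSPE1, and HSPE1 with its counts added had an LFC of -1.26. HSPA9 (mortalin), the mitochondrial HSP70 that pulls proteins in, ranged from 577 to 649.8 CPM (median 606) in vehicle and from 464 to 525 CPM (median 502) in nutlin. Its groups did not overlap although the change was small (LFC -0.29, adjusted p = 3.50e-09). DNAJC19, of the import motor, and DNAJC11, of the inner membrane's scaffold, were lower (LFC -0.71 and -0.32), and DNAJA3, the DNAJ partner of HSPA9 in the matrix, was slightly higher (LFC 0.17, adjusted p = 0.000686). DNAJC30 had an LFC of -0.04 (adjusted p = 0.72), and DNAJC15 had 9 and 7 counts over the samples of the 2 groups.

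The list of ER members was fixed by name and may not hold every one. Of its 10 genes, 4 were lower (40.0%, against 38.5% of all mRNAs), 2 higher (20%, against 32.4%) and 4 not called. Each of them had a mean of at least 10 CPM, and of the mRNAs of that abundance 59.3% were lower and 26.0% higher. HSPA5 (BiP), the ER's HSP70 (chromosome 9, 125234853 to 125241382), ranged from 390.3 to 478 CPM (median 399) in vehicle and from 261 to 316 CPM (median 279) in nutlin (LFC -0.53, SE 0.04, adjusted p = 8.99e-13). DNAJB11, its partner for newly made chains, ranged from 77.9 to 100.5 CPM (median 87.7) in vehicle and from 48.4 to 58.3 CPM (median 56.5) in nutlin (LFC -0.67, adjusted p = 2.62e-14). HSP90B1 is given above, and HSPA13 had an LFC of -0.35 (adjusted p = 3.20e-07). All 4 had every nutlin sample below every vehicle sample. The other direction was taken by DNAJB9 (ERdj4), which serves ER-associated degradation, with 15.4 to 23.3 CPM (median 18.4) in vehicle and from 21.4 to 26.8 CPM (median 24.1) in nutlin (LFC 0.36, adjusted p = 3.05e-05), and by DNAJC1, an ER membrane DNAJ (LFC 0.44, adjusted p = 1.24e-07). For both of these the groups overlapped. DNAJC3 (P58IPK) ranged from 16.4 to 22.5 CPM (median 19.5) in vehicle and from 15.9 to 23.4 CPM (median 20.2) in nutlin (LFC 0.02, adjusted p = 0.859). DNAJB12 and DNAJB14, both of the ER membrane, and the disulfide reductase DNAJC10 were not called either, with LFC of -0.06, 0.00 and 0.03.

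Among the 4 DNAJA and 12 DNAJB genes, 6 were lower, 5 were higher and 5 were not called. This split was close to that of all mRNAs, of which 38.5% were lower and 32.4% higher. For mRNAs that average 10 CPM or more the shares were 59.3% and 26.0%, but DNAJA4, DNAJB7, DNAJB8 and DNAJB13 were scarcer than that. DNAJA1, a main cytosolic partner of HSPA8 (chromosome 9, 33025273 to 33039907), ranged from 460.3 to 551 CPM (median 486) in vehicle and from 264 to 295 CPM (median 284) in nutlin (LFC -0.81, SE 0.03, adjusted p = 4.20e-19). DNAJB1 (HSP40), the heat-inducible partner (chromosome 19, 14514769 to 14560391), ranged from 114 to 151 CPM (median 121) in vehicle and from 73.8 to 98.1 CPM (median 88.8) in nutlin (LFC -0.48, SE 0.05, adjusted p = 9.08e-10). In both cases no nutlin sample reached the vehicle range. DNAJB1 shares 525 bases of exon with TECR on the opposite strand, and the strand setting of kallisto is not given in the sources used here, so that reads of the 2 genes may be mixed there. DNAJA2 and DNAJA4, close relatives of DNAJA1, and DNAJB6, which keeps polyglutamine proteins from aggregating, were lower too, with LFC of -0.37, -0.44 and -0.34. DNAJB2 (HSJ1), a neuronal DNAJ that hands proteins to the proteasome (chromosome 2, 219279342 to 219286898), ranged from 13.8 to 19.3 CPM (median 15.7) in vehicle and from 23.5 to 31.4 CPM (median 28.3) in nutlin. It was 1.79-fold higher, with no overlap (LFC 0.84, SE 0.06, adjusted p = 9.86e-14). DNAJB5 also rose without overlap and ranged from 62.4 to 72.0 CPM (median 66.1) in vehicle and from 86.4 to 99.9 CPM (median 94.6) in nutlin (LFC 0.50, adjusted p = 4.01e-13), and DNAJB4 rose with overlap (LFC 0.42, adjusted p = 6.63e-06). DNAJB7, DNAJB8 and DNAJB13 were scarce, with medians of no more than 2.50 CPM in either group, and were not called.

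The 28 DNAJC genes have little in common but the J domain, and 10 were lower (35.7%, against 38.5% of all mRNAs), 8 higher (28.6%, against 32.4%) and 10 not called. The 10 lower genes all had a mean of at least 10 CPM, but not all 28 did. Of the mRNAs of that abundance, 59.3% were lower and 26.0% higher. DNAJC9, a chaperone of histones (chromosome 10, 73183362 to 73247255), ranged from 94.96 to 113 CPM (median 102) in vehicle and from 33.0 to 41.6 CPM (median 36.3) in nutlin. It was 2.78-fold lower (LFC -1.48, SE 0.04, adjusted p = 1.49e-23), second among the members only to HSP90AA1. DNAJC9 has 1819 bases of exon opposite FAM149B1, a longer shared stretch than any other pair of a member and a protein_coding gene in the annotation. DNAJC8, a factor of the splicing machinery, ranged from 206 to 280.1 CPM (median 237) in vehicle and from 103 to 124 CPM (median 113) in nutlin (LFC -1.07, SE 0.04, adjusted p = 3.58e-19). DNAJC12, which helps the hydroxylases of aromatic amino acids to fold, DNAJC7, which moves clients between HSP70 and HSP90, and DNAJC2, which sits on the ribosome, had LFC of -0.71, -0.41 and -0.34. DNAJC13, of the endosome, had -0.38. These 6 genes had no overlap between the groups, and the splicing-related DNAJC17 and the Rab-like DNAJC27 were lower with overlap (LFC -0.29 and -0.36). DNAJC2 has 1400 bases of exon opposite PMPCB, whose counts are as high, and DNAJC14 has 920 bases opposite ORMDL2, so that their reads may be mixed too.

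DNAJC5 (cysteine string protein), which guards the release machinery of synaptic vesicles, ranged from 81.8 to 95.3 CPM (median 88.0) in vehicle and from 91.8 to 102 CPM (median 97.6) in nutlin (LFC 0.13, SE 0.03, adjusted p = 0.000793). DNAJC6 (auxilin), which strips clathrin off vesicles in neurons, ranged from 44.3 to 53.05 CPM (median 49.3) in vehicle and from 49.5 to 55.7 CPM (median 54.3) in nutlin (LFC 0.14, SE 0.04, adjusted p = 0.00139). For both the groups overlapped, and the difference passed the test although it was small. DNAJC4 was higher without overlap, at 3.32 to 4.71 CPM (median 3.79) in vehicle and from 4.83 to 7.63 CPM (median 6.66) in nutlin (LFC 0.75, adjusted p = 2.67e-08), although it shares 297 bases of exon with NUDT22 on the same strand. DNAJC16 and DNAJC18, both membrane proteins and not on the ER list, were higher as well (LFC 0.43 and 0.18), again with no overlap. DNAJC21, which serves ribosome assembly, was higher with overlap (LFC 0.16, adjusted p = 0.0239). DNAJC14 varied widely, from 1.13 to 14.9 CPM (median 8.57) in vehicle and from 5.49 to 24.1 CPM (median 10.6) in nutlin, and its LFC of 0.42 did not pass the test (SE 0.25, adjusted p = 0.163). DNAJC24, an enzyme cofactor of diphthamide synthesis, DNAJC25 and the read-through gene DNAJC25-GNG10 were not called, with LFC of 0.13, 0.05 and -0.22. DNAJC24 (adjusted p = 0.0625) was called higher under 8 of 14 alternatives, DESeq2 among them. DNAJC5B, DNAJC5G, DNAJC22 and DNAJC28 had means below 1 CPM, and of these only DNAJC22 was called (LFC 0.86, adjusted p = 0.00345).

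Small heat shock proteins, which hold unfolded proteins without ATP, were scarce in NGP cells. HSPB1 (HSP27), the most abundant of the 7, ranged from 9.02 to 15.5 CPM (median 10.9) in vehicle and from 9.37 to 13.1 CPM (median 11.2) in nutlin and was not called (LFC -0.04, adjusted p = 0.69). HSPB8, a partner of BAG3 in selective autophagy, had 2 counts over the 10 vehicle samples and 34 over the 10 nutlin samples. The ratio per total count was 18.8, with a 95% exact interval of 4.81 to 161 that covers counting error only. The edgeR test called it with a smaller estimate, 10.6-fold (LFC 3.41, SE 0.52, adjusted p = 1.30e-06). HSPB6, HSPB7 and HSPB9 had means below 1 CPM and were not called. The divergent HSP70 relatives HSPA12A and HSPA12B were both lower by the test, HSPA12A by little at 77.7 to 82.9 CPM (median 80.9) in vehicle and from 70.9 to 78.9 CPM (median 74.3) in nutlin (LFC -0.11, adjusted p = 0.00155) and HSPA12B on few counts (LFC -0.58, adjusted p = 0.0423). Neither was called with DESeq2 size factors in place of TMM.

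Genes that work with the members were counted on 3 further lists. Of 36 co-chaperones and heat shock factors, 26 were lower (72.2%), 4 higher (11.1%) and 6 not called, with a median LFC of -0.40. For the mRNAs with a mean of at least 10 CPM these values were 59.3%, 26.0% and -0.24. FKBP5, a steroid receptor co-chaperone of HSP90, ranged from 152 to 162 CPM (median 155) in vehicle and from 47.6 to 63.4 CPM (median 54.3) in nutlin (LFC -1.51, adjusted p = 2.01e-24), and BAG2, an HSP70 exchange factor that inhibits the ubiquitin ligase CHIP, had an LFC of -1.49 (adjusted p = 1.12e-19). The highest LFC of the list that passed the test was that of SIL1, the exchange factor of HSPA5, at 1.16, followed by HSF4 at 0.56. SIL1 ranged from 11.8 to 15.7 CPM in vehicle and from 29.7 to 34.3 CPM in nutlin. Other HSP70 exchange factors of the list were lower, BAG4 (LFC -0.97), HSPBP1 (-0.65), BAG5 (-0.47), BAG3 (-0.46), GRPEL1 (-0.32) and BAG1 (-0.19) among them, and GRPEL2 was not called. Of the 14 subunits of the cytosolic chaperonin TRiC and its helper prefoldin, 12 were lower (85.7%, against 59.3% of those mRNAs), none was higher and 2 were not called (median LFC -0.53). The most negative LFC were those of the prefoldin subunit VBP1 (-1.15) and of CCT5 (-1.12). Those closest to 0 of the called subunits, PFDN6 and PFDN4, were at -0.37 and -0.34.

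The last list held other ER folding and stress genes. Of 24 on the list, 14 were lower (58.3%, against 59.3%), 5 higher (20.8%, against 26.0%) and 5 not called. The disulfide isomerase PDIA6 ranged from 371 to 435 CPM (median 396) in vehicle and from 132 to 152 CPM (median 142) in nutlin (LFC -1.48, adjusted p = 4.06e-25), and the secreted factor MANF had an LFC of -1.16. By contrast, ERN1 (IRE1), a sensor of unfolded protein, ranged from 9.56 to 11.9 CPM (median 10.6) in vehicle and from 47.1 to 69.4 CPM (median 66.5) in nutlin (LFC 2.57, adjusted p = 1.52e-24), and EDEM1, which sends glycoproteins to degradation, had an LFC of 1.74. The other 3 higher genes were HERPUD1, XBP1 and ATF6 (LFC 0.58, 0.31 and 0.15), named because the 5 are few. SEL1L, which like HERPUD1 and EDEM1 serves the degradation of ER proteins, and EIF2AK3 (PERK), a sensor like ERN1, were not called (LFC 0.10 and -0.09, adjusted p = 0.0809 and 0.59). The percentages of changed genes were 83.3%, 85.7% and 79.2% in the 3 lists, against 85.2% of the mRNAs with a mean of at least 10 CPM.

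**Figure D4:**
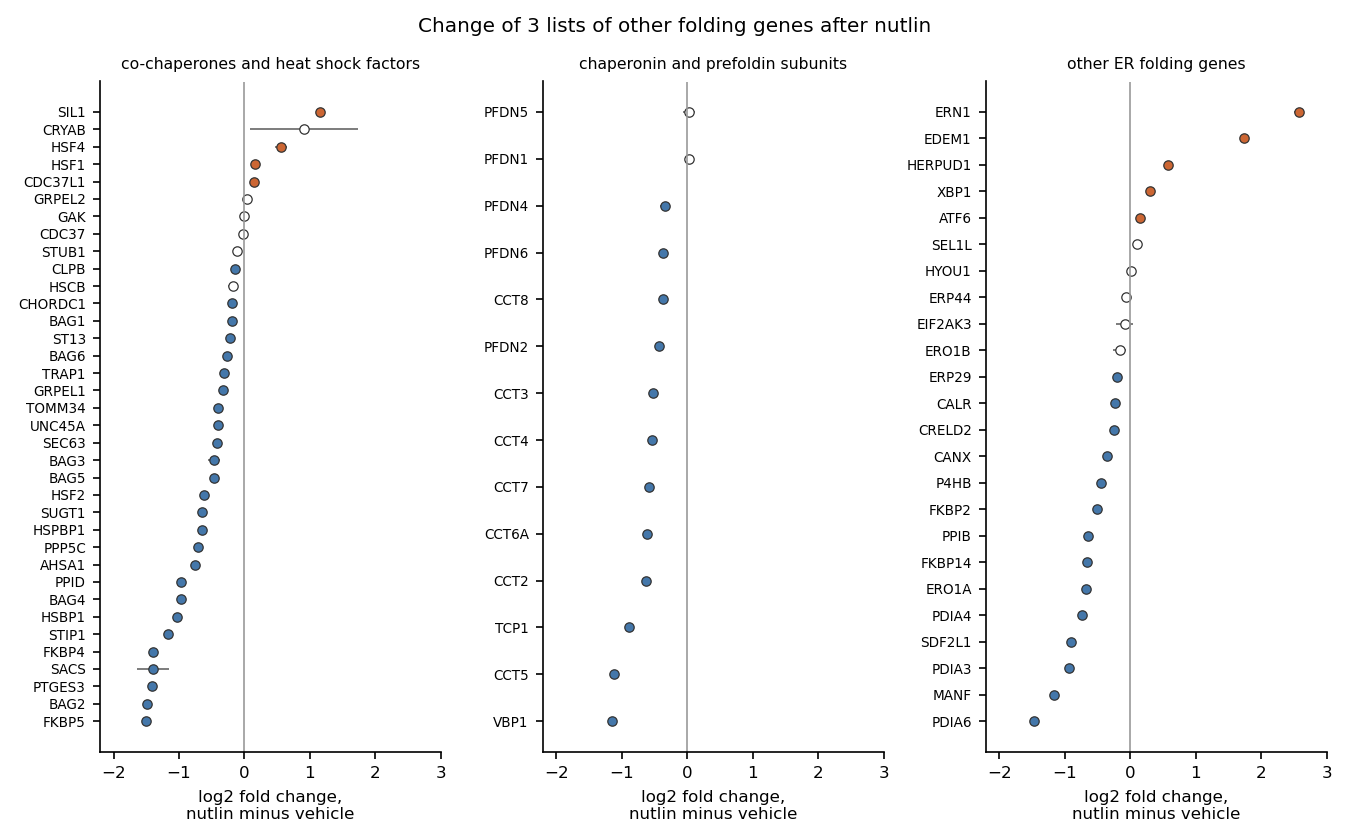
LFC (x axes, log2, nutlin minus vehicle) of 36 co-chaperones and heat shock factors, 14 chaperonin and prefoldin subunits and 24 other ER folding genes, with bars of 1 standard error. Orange symbols were higher and blue symbols lower at 5% FDR, and open symbols were not called. The chaperonin and prefoldin list holds no orange symbol.

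Kallisto also divides the reads of a gene among its transcripts, and the share of each transcript in its gene was tested with the diffSpliceDGE function of edgeR. The uncertainty of this division is not in the deposited values, so the p-values of shares here and in the next paragraph do not cover it. For 40 members, 162 transcripts were tested, and the share changed at 5% FDR for 26 of them (16.05%) in 12 genes, against 7.86% of the 40208 transcripts tested in all. It was higher for 19 and lower for 7. Of the 91 protein_coding transcripts among them, 5 were higher in share and 7 lower, against 4.94% and 3.43% of such transcripts in all. These members are abundant, and the background was not matched for abundance. The count depended on the tool, since limma diffSplice called 67 and the newer quasi-likelihood method of edgeR 60 of these transcripts. DNAJB6-204, which encodes the short form of 241 residues found in nucleus and cytosol, made up between 33.5% and 51.1% of the DNAJB6 TPM in vehicle (median 39.9%) and between 19.5% and 31.7% in nutlin (median 27.2%). Its groups did not overlap, and the log2 change against the gene was -0.66 (adjusted p = 7.89e-06). DNAJB6-201, the long form of 326 residues, had medians of 22.4% and 27.5% and did not pass the test (adjusted p = 0.212). DNAJB5-201, of 348 residues, went from a median share of 75.0% to 49.9% (adjusted p = 2.78e-05), and DNAJB5-204, of 420 residues, from 9.64% to 22.5% (adjusted p = 3.76e-05). The rise of DNAJB5 as a gene thus came with a larger share of the longer form. HSPA4L-204 rose in share from a median of 21.1% to 31.5% of HSPA4L, with overlapping groups (adjusted p = 0.0131). DNAJB12-201 fell from 10.8% to 2.82% (adjusted p = 0.00154) and DNAJC10-209 from 29.0% to 19.3% (adjusted p = 0.00682), although neither gene was called as a whole. The share of HSP90AA1-202, a minor form of 854 residues, went from 0.738% to 2.13% (adjusted p = 2.70e-18) while HSP90AA1-201, of 732 residues, held 98.0% and 92.7%.

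Among transcripts annotated as retained_intron, every share that changed was higher after nutlin. Of 36 such member transcripts tested, 10 were higher in share (27.8%) and none was lower, against 5.05% and 1.22% of 7679 in all. HSPA9-205 went from between 4.84% and 9.10% of the HSPA9 TPM in vehicle to between 10.3% and 15.5% in nutlin (adjusted p = 1.11e-11). Its level averaged 14.2 ± 3.65 TPM in vehicle and 24.0 ± 3.88 TPM in nutlin (SD, n = 10), while HSPA9 as a gene fell. Summed over a gene, retained_intron transcripts could be followed in 31 members with a mean of at least 10 CPM. In 8 of them (25.8%) every nutlin sample was above every vehicle sample and in none was it below, against 4.38% and 0.563% of 5862 mRNA genes of that abundance. For HSP90B1 the median went from 25.5% to 32.1%, for HSPA9 from 14.7% to 25.6%, for HSPA12A from 9.17% to 17.8% and for HSPD1 from 5.50% to 12.1%. In HSP90AA1, DNAJB6, DNAJB5 and DNAJA2 the medians in nutlin were between 2.59% and 6.70%. As genes, 7 of these 8 were lower after nutlin and DNAJB5 was higher. A higher summed share was not always a higher level. HSP90B1-208 and HSP90B1-209, whose own shares were not called, averaged 21.4 and 26.0 TPM in vehicle and 12.5 and 12.9 TPM in nutlin. Such transcripts hold intron sequence and most encode no full protein.

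**Figure D5:**
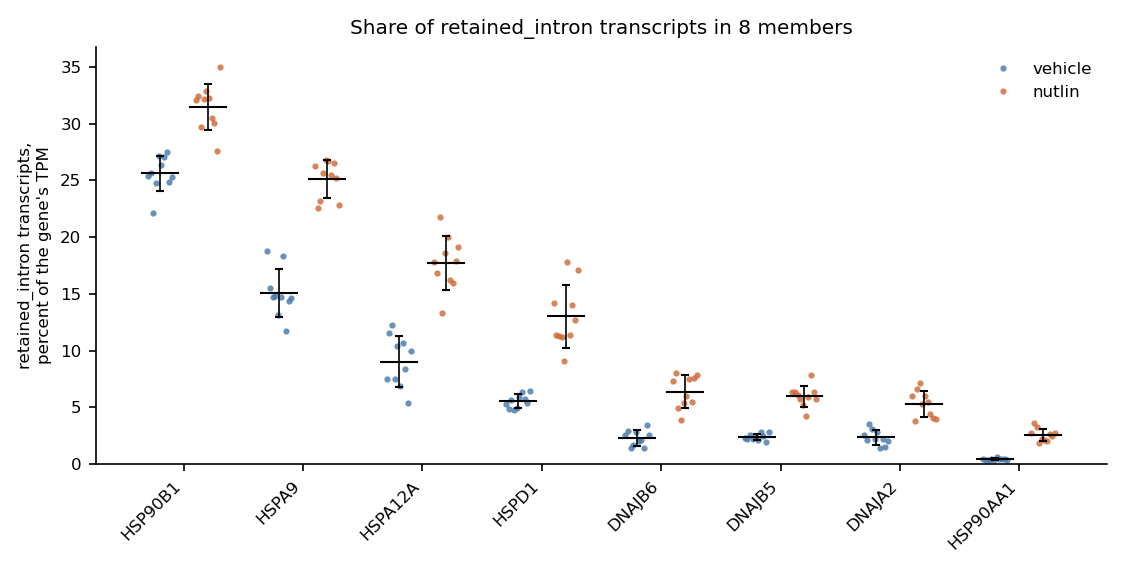
Share of the TPM of a gene that lay on its retained_intron transcripts (y axis, percent) in each sample, for the 8 members in which every nutlin sample (orange) was above every vehicle sample (blue), with bars at the mean ± 1 SD of 10 samples. HSP90B1 has the highest share in both groups and HSP90AA1 the lowest.

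The samples of a group were much alike, with exceptions. Vehicle replicate 10 had the highest value of its group for 28 of the 59 members with a mean of at least 1 CPM (47.5%), against 26.95% of 12797 mRNAs, and nutlin replicate 4 the lowest for 15 (25.4%), against 15.85%. Without vehicle replicate 10, 51 members were called, and without nutlin replicate 4, 49. No LFC of the 59 members moved by more than 0.08 and 0.11, respectively, and the member that moved most without nutlin replicate 4 was HSPA6.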

How the data were processed

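RNA-seq libraries of NGP cells, 10 treated with vehicle and 10 with nutlin-3, were quantified by the authors with kallisto (version 0.42.4, build hg38 per the labels), and the deposited files give the estimated counts and the TPM of each transcript, a length-corrected level. The strand setting is not given in the sources used here. Matching to GENCODE release 44 succeeded for 191106 of 198968 transcripts, which held 95.71% to 96.78% of a library's counts. The 7862 without a match were dropped.

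Estimated counts were summed per gene and rounded, and the mRNA and lncRNA genes with 1 or more counts in each condition were tested with the edgeR quasi-likelihood test (version 4.0.16, R 4.3.3), with TMM factors and a design of treatment alone. P-values were adjusted by Benjamini-Hochberg over all genes. Standard errors were derived from the LFC and its F statistic. The shares of transcripts with a mean of at least 1 CPM were tested with diffSpliceDGE. Whether the replicate numbers that both groups share mark pairs is not given in the sources used here. The 8 correlations of same-numbered samples lay between -0.0445 and 0.0797. They show no clear common deviation but cannot settle the pairing. DESeq2 (1.42.0) and limma (3.58.1) served as alternatives, and the steps were tested on simulated data. Promoters came from RefSeq (GRCh38.p14), and figures were drawn with matplotlib 3.10.9. The protein lengths are those of the coding sequences in GENCODE.

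The members, lists and tests were chosen with earlier results of these data known. Genes described in full were 19 fixed members, up to 10 members with the highest and 10 with the lowest LFC among called members that reached 1 CPM on average and had no overlap, the members of that level that were not called, and the called extremes of the other lists. HSPA4, HSPB8, HSPA1L, HSPA12A, HSF1, HSF2, the exchange factors beside BAG2, SEL1L, EIF2AK3, HERPUD1, XBP1, ATF6, the transcripts DNAJB5-204, DNAJB6-201, HSP90AA1-201 and HSP90AA1-202 and the remaining members were named beside them after their values were seen.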

Additional observations from a re-analysis of the deposited data

Results flagged for a closer look

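For 13 of the 158 groups of 10 samples examined, 1 sample stood apart from the others, its gap to the next being a larger part of the group's range than the critical value of Dixon's test. Chance alone does this in about 1 of 20 groups.

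Vehicle replicate 10 was the high sample in 4 of them. It had 2499 CPM of HSPA8 (next 2194), 151.4 CPM of DNAJB1 (next 130.1), 13.49 CPM of DNAJC25 (next 11.97) and 96.06 CPM of MANF (next 82.31). Vehicle replicate 4 was high for DNAJC24, at 17.54 CPM (next 14.38), and low for HSPA1A, at 2.983 CPM (next 5.655). Vehicle replicate 6 had the lowest summed TPM of the members, 6614 (next 7060).

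Among the nutlin samples, replicate 6 was high for HSPE1, at 204.1 CPM (next 164.8), and for the prefoldin subunit PFDN4, at 63.61 CPM (next 48.11). Nutlin replicate 9 was low for DNAJC6, at 49.55 CPM (next 52.44), and high for DNAJB13, at 3.398 CPM (next 2.60). Nutlin replicate 3 was low for DNAJC13, at 54.49 CPM (next 58.15), and nutlin replicate 4 for EDEM1, at 67.8 CPM (next 88.66).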

How the results depend on the processing

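Under 14 alternatives, 714 values of 51 genes were recomputed. Of these, 665 kept their direction and their side of the threshold, 11 passed it only under the alternative, and none lost it. The 38 that turned their direction all belonged to genes that were not called. Between 46 and 51 members were called over the alternatives, none with the opposite sign. Some called members outside these 51 genes were no longer called under an alternative. There were 5 of them under the filterByExpr filter, and DNAJC27 and HSPA12A with the offset for effective length.

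Log2 fold changes that turned were small. With DESeq2 size factors they were 0.0402 for HSPA1A, 0.0081 for HSPA1B, 0.0059 for HSPB1, 0.0255 for DNAJB13 and 0.0104 for DNAJC30, and with DESeq2 itself 0.0401, 0.0082, 0.0059, 0.0249 and 0.0103. With limma voom HSPA1A was at 0.0059. Under the filterByExpr filter the values were 0.0706 for HSPA1A, 0.0379 for HSPA1B, 0.0355 for HSPB1, 0.0212 for DNAJB12, 0.0547 for DNAJB13 and 0.04 for DNAJC30, and with 1 or more counts in every sample 0.0507, 0.0182, 0.016, 0.0017, 0.0345 and 0.0208. HSPA1A was at 0.0146 with unmatched transcripts in the library sizes, DNAJB13 at 0.011 with an offset for effective length, and DNAJC25 at -0.0109 with its read-through gene added. Leaving out vehicle replicate 10 or nutlin replicate 4, HSPA1A lay between 0.0355 and 0.0665, DNAJB14 between -0.0083 and 0.0367 and DNAJC30 between -0.0471 and 0.0382. Both samples were chosen for this after the data were seen.

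A replicate block, fitted to the 16 samples whose number occurs in both groups, left 46 members called, against 48 in the same samples without the block, and DNAJC22, HSPA12A and HSPA12B were not called. Whether these numbers pair the samples is not known. With the block HSPB1 was at 0.0204, DNAJB13 at 0.0137, DNAJB14 at -0.016 and DNAJC30 at 0.0284, and without it in those 16 samples at 0.0157, 0.0094, -0.0327 and 0.0154. The block left 20 member transcripts with a changed share.

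The count of member transcripts with a changed share was 26, but 67 with limma diffSplice and 60 with the newer quasi-likelihood method of edgeR, and the cause was not tested. Summed TPM averaged 6491 in vehicle and 3309 in nutlin when protein_coding transcripts alone were counted, and 5994 and 3159 without HSP90AB1, against 7251 and 3929. Stricter filters left HSPB8 and HSPA1L untested. DNAJC24 passed the threshold under 8 of the alternatives, with an adjusted p between 0.00242 and 0.0665 over the 14.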
